A study of Mus musculus with 653 samples.

Results

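The 9 genes described here mark 2 tissues that surround the early liver bud. Wt1, Alcam, Upk3b, Upk1b and Podxl are genes of the mesothelium, and Lhx2, Hand2, Gata4 and Nr2f1 are genes of the septum transversum. They were taken by name, as 9 of the 54195 genes in the deposited count table, and followed cell by cell with Pdgfra, a receptor of mesenchymal cells, and Afp, the alpha-fetoprotein of hepatoblasts. All 9 had reads. The table held 414 single cells from mouse livers at embryonic day E10.5 and 239 at E13.5, prepared by Smart-seq2, a method that reads full-length cDNA from 1 cell at a time. The embryos came from Lgr5-EGFP-IRES-creERT2 males, kept on C57BL/6, crossed to MF1 females, and in this line green fluorescent protein (GFP) is made from the Lgr5 locus. Cells of every group had been gated as Liv2+ CD31- CD45-, and the Lgr5-GFP+ groups also for GFP. At E10.5 the bulk and Lgr5-GFP+ sorts were of like size, and at E13.5 80 cells were Lgr5-GFP+ and the rest bulk (group and class sizes are given with the processing). Every cell carried the submitters' label of a liver hepatoblast.

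The septum transversum is a sheet of mesoderm into which hepatoblasts migrate when the liver bud forms, and it provides the mesenchyme of the organ. The mesothelium is the epithelium that covers the liver and the other organs of the body cavity, and it gives rise to part of the hepatic stellate cells and fibroblasts. Mesothelial cells carry keratins, like an epithelium, together with mesodermal transcription factors such as Wt1.

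The proteins fall into 2 kinds. Wt1 is a zinc-finger transcription factor of mesothelial cells and kidney podocytes. Its gene lies at chr2:105126529-105173616 of GRCm38. Alcam (chr16:52248996-52454074) is an adhesion protein of the immunoglobulin superfamily that is used to sort mesothelial cells. Upk3b (chr5:136038496-136046487) and Upk1b (chr16:38773184-38800328) encode uroplakins, membrane proteins that pair with each other. Podxl (chr6:31519488-31563981) encodes podocalyxin, a sialomucin that is also carried by endothelium and blood progenitors. The other four encode transcription factors. Lhx2 (chr2:38339281-38369733) is a LIM-homeodomain factor needed in stellate cells, Hand2 (chr8:57320983-57324633) a basic helix-loop-helix factor of lateral mesoderm, Gata4 (chr14:63198922-63271692) a zinc-finger factor of mesoderm, endothelium and endoderm, and Nr2f1 (chr13:78188973-78199757) an orphan nuclear receptor. These spans are whole genes, exons and introns included.

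RefSeq promoter windows were matched by symbol for 5 of the 9 genes. The 250 bases before the RefSeq start on GRCm38.p6 are shown for Upk3b and Hand2, 1 gene of each tissue, neither of which had a positive Afp+ cell in the comparison of classes. Both are on the plus strand and read 5′ to 3′, and capitals mark the motifs searched.
Upk3b (chr5:136038246-136038495): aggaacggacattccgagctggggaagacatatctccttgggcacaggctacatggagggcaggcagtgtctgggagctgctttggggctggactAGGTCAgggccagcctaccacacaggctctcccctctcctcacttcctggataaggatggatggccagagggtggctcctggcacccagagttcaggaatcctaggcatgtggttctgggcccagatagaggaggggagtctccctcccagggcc
Hand2 (chr8:57320733-57320982): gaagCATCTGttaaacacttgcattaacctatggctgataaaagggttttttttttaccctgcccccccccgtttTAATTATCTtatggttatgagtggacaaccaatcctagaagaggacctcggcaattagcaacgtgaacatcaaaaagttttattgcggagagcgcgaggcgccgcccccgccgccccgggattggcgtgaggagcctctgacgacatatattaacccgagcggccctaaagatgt
4 motifs were searched on both strands, AGATAA of GATA factors, AGGTCA of nuclear receptors, TAATTA of LIM-homeodomain factors and CATCTG of HAND proteins. The Upk3b window held AGGTCA at base -155 from the start. The Hand2 window held CATCTG at -246, TAATTA at -175 and the reverse complement of AGATAA at -172, which overlaps TAATTA. Of all 32851 windows, 11.2% held AGATAA, 16.3% AGGTCA, 5.29% TAATTA and 17.2% CATCTG. These matches describe letters only.

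A cell was called positive for a gene with more than 10 reads of it. Since the labels name no animal, litter or culture, each group counts as 1 sample, so no test between groups was made and no p-value is given. The study sorted cells in several experiments, but the labels do not tie these to the library pools. Shares carry exact Clopper-Pearson 95% intervals and sums of reads exact Poisson intervals. Both cover counting error only, since reads without molecular identifiers are not independent molecules. The cells held 463347 to 2279700 reads. They came from 5 library pools, read from the start of each cell's name. Pools 1 and 2 stood apart from pools 3 to 5: their cells had medians of 4515 and 4488 detected genes, against 6606, 6550 and 6280.5. Many values that depend on the pools are given with and without pools 1 and 2, and the rest are over all pools. Among 365 index pairs 230 were used in more than 1 pool, but no cell name occurred more than 1 time.

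The hepatoblast label was checked first. Over 10 reads of Afp were found in 63 of the 414 E10.5 cells (15.2%) and in 3 of the 239 E13.5 cells. Pdgfra passed the same limit in 150 E10.5 cells (36.2%) and 9 E13.5 cells. Among E13.5 bulk cells, 87.4% had at least 3 of 10 erythroid genes, such as Gata1 and Klf1, over the limit. Hence most cells with the label were not Afp+ by this limit, and the cells were grouped by reads instead. Of the 414 E10.5 cells 35.3% were Pdgfra+, 59 (14.3%) were Afp+, 4 were both, 42 were erythroid and 39.4% were none of these. The classes are cut on reads, yet few cells lay near the cut: 19 E10.5 cells had 4 to 20 reads of Pdgfra and 15 had as many of Afp.

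Wt1 and Alcam reads were split in the same way, between cells with almost none and cells with many. Of the E10.5 cells, 288 had 0 reads of Wt1, 68 had 1 to 3, 6 had 4 to 20 and 49 had over 50, with 1927 in the highest cell. For Alcam, 19 E10.5 cells had 4 to 20 reads, 150 were positive and the highest had 5241. Over both stages 63 cells were Wt1+, 9 of them at E13.5, where 13 were Alcam+. Hand2 was the least clear-cut of the members, with, over both stages, 18 cells at 4 to 20 reads and 14 over 50.

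Alcam was the member found in most E10.5 cells, and Wt1 was found in fewer. Among E10.5 bulk cells, 57 were Alcam+ (28.1%, 22 to 34.8) and 39 were Wt1+ (19.2%, 14 to 25.3). Podxl was positive in 54 bulk cells (26.6%), Upk3b in 13 (6.40%) and Upk1b in 5 (2.46%). Of the septum transversum genes Nr2f1 was positive in 53 (26.1%), Gata4 in 32 (15.8%), Hand2 in 20 (9.85%) and Lhx2 in 17 (8.37%). The shares of Alcam, Podxl and Nr2f1 lay within each other's intervals, and so did those of Hand2, Lhx2 and Upk3b. In E10.5 Lgr5-GFP+ cells Alcam was at the head of the order, at 93 cells (44.1%, 37.3 to 51.1), and Wt1 was positive in 15 (7.11%, 4.03 to 11.5). At E13.5 the genes were found mainly in Lgr5-GFP+ cells, as Gata4 in 17 of 80 (21.3%), Alcam in 11 (13.8%) and Wt1 in 8, with Podxl the exception at 49 bulk cells (30.8%).

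**Figure D1:**
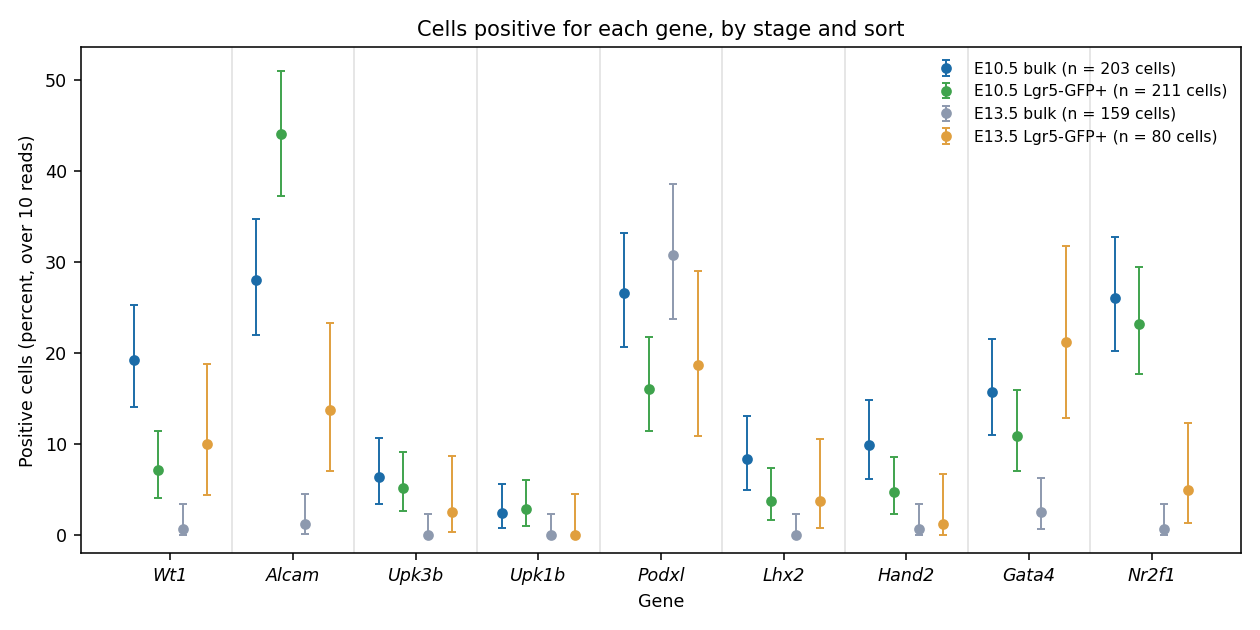
Percent of cells with more than 10 reads of each of the 9 genes (y axis, percent) in the 4 groups, with exact 95% intervals as bars, which cover counting error only. Alcam reaches 44.1% in E10.5 Lgr5-GFP+ cells, Wt1 is highest in E10.5 bulk cells at 19.2%, and the uroplakins Upk3b and Upk1b stay at or below 6.40% in every group.

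The first question of co-expression was whether the genes were found with Pdgfra or with Afp. Apart from Alcam and Podxl, no member was positive in any of the 59 Afp+ E10.5 cells, which allows a share of up to 5.08% for each. Of these 59 cells 24 came from pools 3 to 5, the pools that held all uroplakin-positive E10.5 cells, and over those the limit is 12.5%. The Afp+ class leaves out the 4 cells positive for both Afp and Pdgfra. Among those 4, Nr2f1 was positive in 3, Wt1 in 1 and Gata4 in 1, so these members were found with Afp there. In Pdgfra+ cells all 9 had positive cells. Wt1 was positive in 35 of them (24%, 17.3 to 31.7), and these cells held 11 to 1927 Wt1 reads with a median of 245. Alcam was positive in 79 (54.1%, 45.7 to 62.4), with 27 to 5241 reads and a median of 837. The interval of Alcam lay wholly above that of Wt1.

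The uroplakins were rare but abundant where they occurred. Upk3b was positive in 13 Pdgfra+ cells (8.90%), at 35 to 2351 reads and a median of 311. Upk1b was positive in 6 (4.11%), at 47 to 1314 reads and a median of 167.5. Single cells weighed on both, since the highest cell held 32.5% of the Upk3b and 48.4% of the Upk1b reads in this class. Among the septum transversum genes, Nr2f1 led with 59 positive Pdgfra+ cells (40.4%, 32.4 to 48.8) of 11 to 1773 reads. Gata4 followed with 30 (20.5%; 13, 170 and 1814 reads as lowest, median and highest), then Hand2 with 20 (13.7%; 11, 37.5 and 314) and Lhx2 with 15 (10.3%; 21, 130 and 572). Per kilobase of exon and 1000000 reads, the levels in Pdgfra+ cells ran from 67.5 for Alcam through 21.2 for Nr2f1, 14.4 for Gata4, 13 for Wt1, 11.3 for Upk3b, 7.62 for Podxl, 7.17 for Upk1b and 3.14 for Lhx2 to 3.06 for Hand2. Over the 5 pools the levels ranged from 32.9 to 88.6 for Alcam, 10.3 to 48.4 for Nr2f1, 0.083 to 22.6 for Gata4 and 0 to 21.4 for Upk3b. The order thus depends on the mix of pools.

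Positive cells were not confined to the Pdgfra+ class. Of the 54 Wt1+ E10.5 cells, 35 were Pdgfra+ (64.8%) and 17 were in no class, and of the 150 Alcam+ cells 79 were Pdgfra+ (52.7%), 23 Afp+ and 48 in no class. Upk3b was positive in 11 of the cells of no class (6.75%), with 33 to 3202 reads and a median of 580, and Gata4 in 23 (14.1%), with a median of 411 reads. Between 54.2% and 66.7% of the positive cells of Wt1, Upk3b, Upk1b, Lhx2, Hand2, Gata4 and Nr2f1 were Pdgfra+. Podxl was the exception at 31.8%. It was positive in 25 of 42 erythroid cells (59.5%, 43.3 to 74.4), more than in any other E10.5 class, and in 9 of 59 Afp+ cells (15.3%). The erythroid class served as the background for the others: Alcam, the uroplakins, Lhx2, Hand2 and Nr2f1 were positive in 0 of its 42 cells, which allows up to 7.14%, and Wt1 and Gata4 in 1 each.

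**Figure D2:**
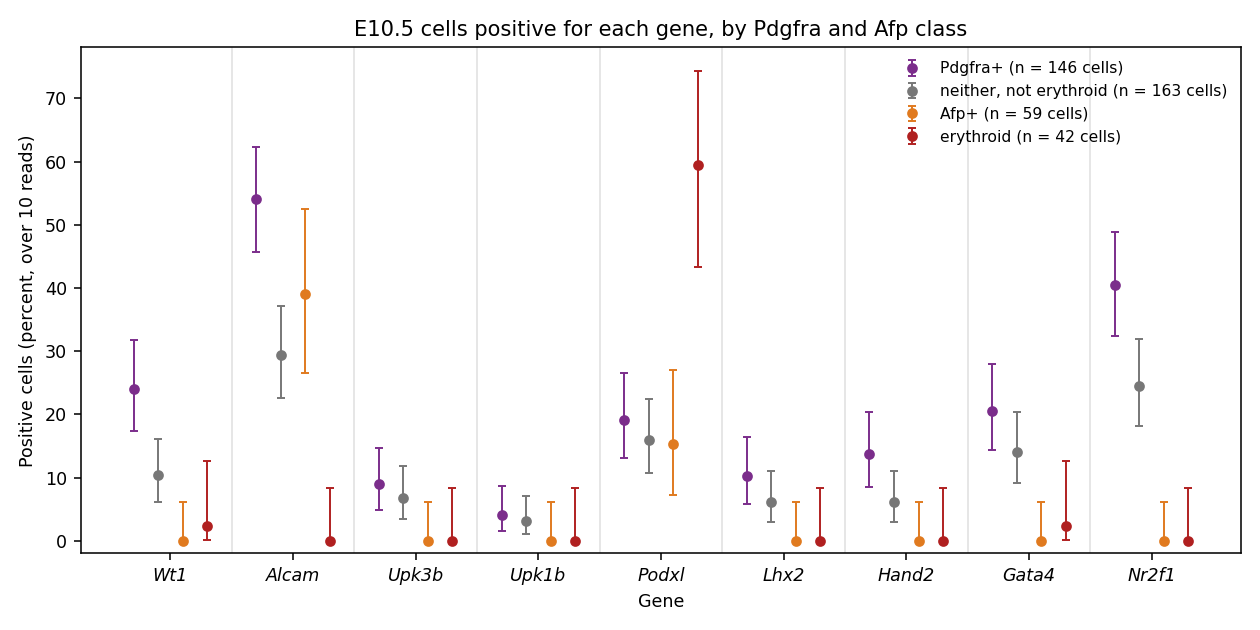
Percent of E10.5 cells with more than 10 reads of each gene (y axis, percent), by class: Pdgfra+ (35.3% of 414 cells), Afp+ (14.3%), erythroid (42 cells) and no class (39.4%), with exact 95% intervals as bars. Alcam is positive in 54.1% of Pdgfra+ and 39% of Afp+ cells, Podxl is highest in erythroid cells at 59.5%, and the other seven have no positive Afp+ cell.

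**Figure D3:**
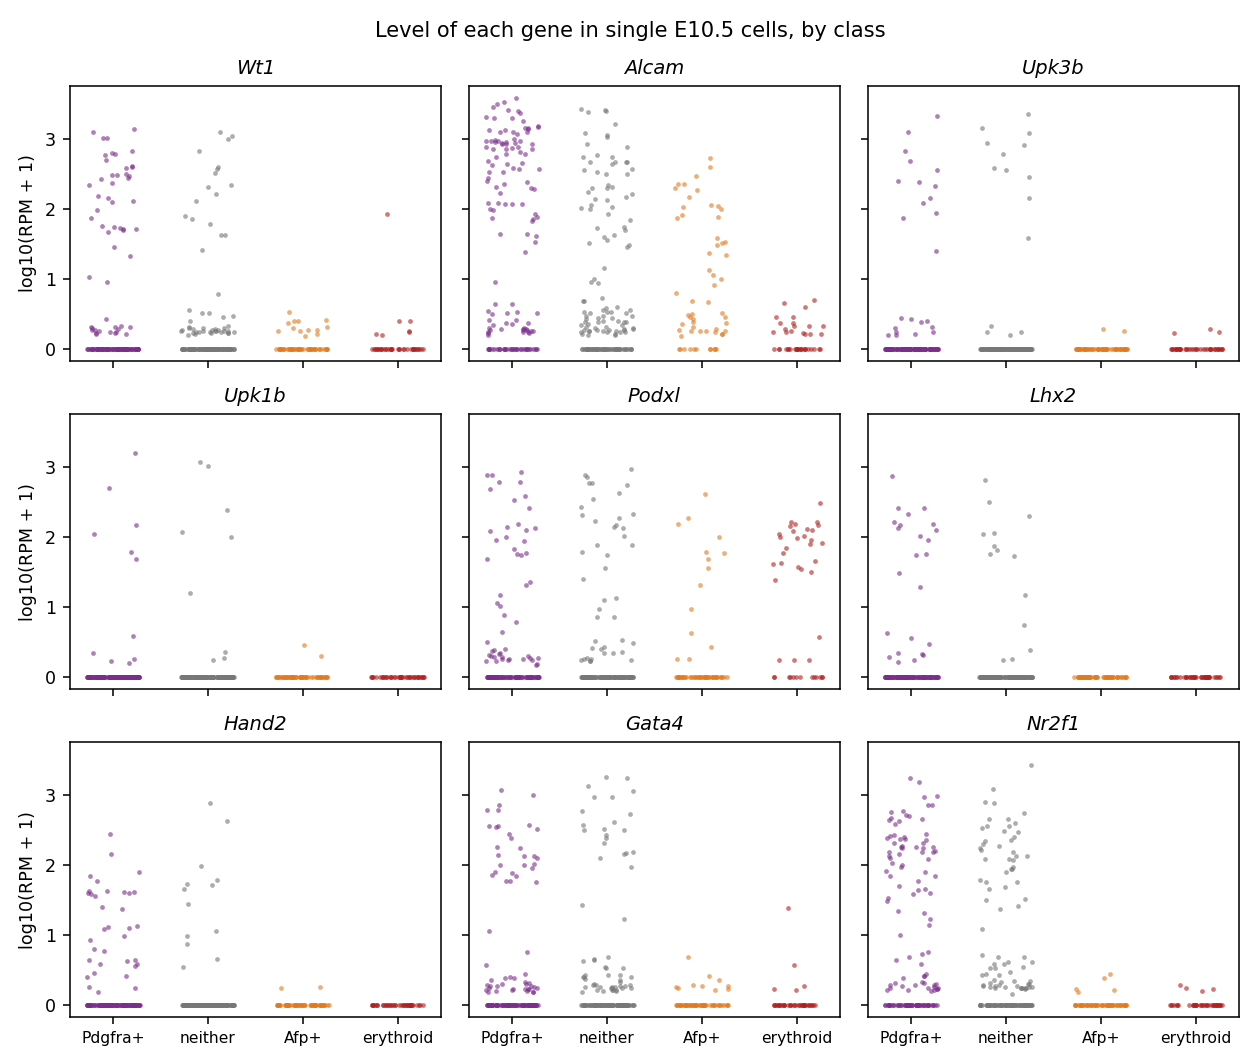
RPM, the reads of each gene per 1000000 reads, in each E10.5 cell (y axis, log10 of RPM plus 1), 1 panel per gene and 1 point per cell, by class. In most panels the points form a band at or near 0 and a separate upper group. For Hand2 these are not clearly apart, with 18 E10.5 cells at 4 to 20 reads. The upper group of Afp+ cells is present for Alcam and Podxl alone.

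Summed over the class, all 9 genes were at least 2-fold higher in Pdgfra+ than in Afp+ cells, beside 36.3% of the 13940 genes tested. Class and sort went partly together, as 53 Afp+ cells were Lgr5-GFP+ and 6 bulk, against 67 and 79 Pdgfra+ cells. The median log2 ratio was 8.28 over the 9 genes and 0.39 over all genes. Wt1 stood at 80.7 against 0.259 reads per 1000000 reads (RPM), a ratio of 311 (199.4 to 517.4). Nr2f1 stood at 108.02 against 0.0818 RPM (1320, 606 to 3597) and Gata4 at 56.3 against 0.218 RPM (258, from 10222 against 16 reads). Against only 2 Upk3b, 3 Upk1b and 2 Hand2 reads in all Afp+ cells, the ratios were 1462 (404 to 12072), 366 (125.1 to 1776) and 264 (72.9 to 2181), and with 0 Lhx2 reads there the ratio was at least 337, counted against 3 reads over the class. Alcam differed least but for Podxl, at 480 against 53.6 RPM (8.95, 8.67 to 9.25). Podxl stood at 41.8 against 18.4 RPM, a ratio of 2.28. It fell to 1.97 without the highest Pdgfra+ cell, to 1.83 without pool 4, and to 0.668 in pools 1 and 2. In bulk cells, with only 6 Afp+ cells, it was 0.770. In pools 1 and 2 alone, 5 of the 9 passed, since neither uroplakin had a read in Pdgfra+ cells, and Gata4 stood at 0.364 against 0.266 RPM.

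The wider gene lists, which include the members, differed in the same direction. The members made up 5 of the mesothelium and 4 of the septum transversum genes counted as higher below. Of 15 tested genes of septum transversum and hepatic mesenchyme 13 were at least 2-fold higher in Pdgfra+ cells, of 14 mesenchyme genes all 14, and of 17 mesothelium genes 14, with 3 lower. The 3 lower ones, Krt8, Krt18 and Dlk1, are also on the hepatoblast list, of which 13 of 13 tested genes were lower. Since Pdgfra and Afp are on these lists and chose the cells, their own values are no finding. The mesothelium gene Msln and the mesenchyme genes Foxf1, Tcf21 and Mab21l2 were at 0 in every cell of both stages. So were Lrat, Tubb3 and Actc1 of the other lists. Whether these transcripts were absent or lost in counting was not tested, so the 0 values are not read as absence.

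Several members were found together in the same cells. Of the 36 pairs, 35 shared more E10.5 cells than their shares would give if independent, and the median ratio of shared to expected cells was 2.49. Over all pairs of the 8561 genes that were positive in 11 to 150 E10.5 cells, as the members were, 81.2% of pairs were above expectation, with a median ratio of 1.42. The uroplakins overlapped most, with 9 of the 11 Upk1b+ cells also Upk3b+ where 0.638 were expected, or 1.10 within pools 3 to 5. Of the 24 Upk3b+ cells, 19 were Wt1+ (3.13 expected), 22 Podxl+ (5.10 expected), 21 Alcam+ and 16 Gata4+. Wt1 and Alcam were shared by 39 cells, 72.2% of the Wt1+ and 26% of the Alcam+ cells, where 19.6 were expected. Wt1 and Gata4 shared 27 cells (7.17 expected). Podxl and Nr2f1, in 19 cells where 21.7 were expected, were the only pair below. Across the 414 cells, which share libraries and depth within a pool, Pearson's r of log2(RPM + 1) ran from -0.07 to 0.67, with 0.67 for the uroplakins, 0.53 for Wt1 with Upk3b and 0.52 for Upk3b with Podxl. Within Pdgfra+ cells 32 of the 36 pairs were above expectation, beside 72.9% of all pairs of those genes. The median ratio there was 1.57, beside 1.35 over all those pairs. Within pools 3 to 5 these values were 33 pairs, 60.9%, 1.77 and 1.08.

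**Figure D4:**
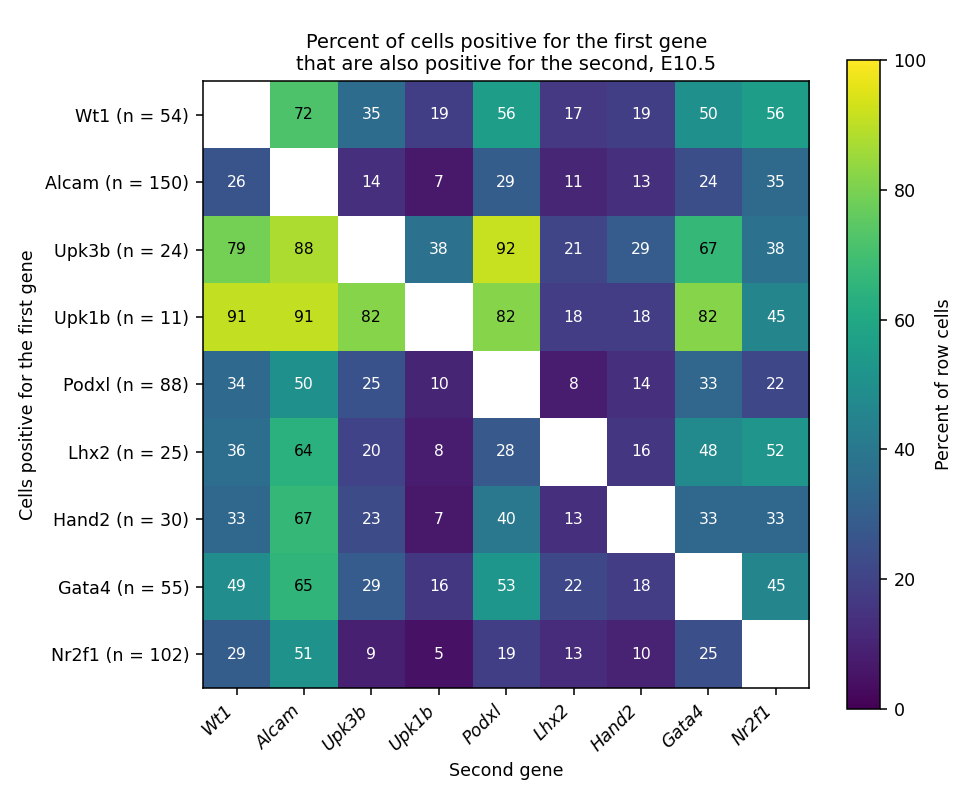
Percent of E10.5 cells positive for the gene of a row that were also positive for the gene of a column, as a heat map of the 9 genes. Wt1 was positive in 79.2% of the 24 Upk3b+ cells and in 90.9% of the 11 Upk1b+ cells, and the uroplakin columns are low for every other gene because few cells carry them.

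The genes also gathered in few cells. At least 3 members were positive in 43 Pdgfra+ cells (29.5%, 22.2 to 37.6) and in 23 cells of no class (14.1%), against 0 of 59 Afp+ and 0 of 42 erythroid cells. The highest count was 8 of 9, reached in each E10.5 sort. By sort, 40 bulk cells (19.7%, 14.5 to 25.9) and 27 Lgr5-GFP+ cells (12.8%, 8.60 to 18.1) had at least 3.

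The 54 Wt1+ E10.5 cells carried genes of mesenchyme, and many also carried keratins. Col3a1 was positive in 47, Vim in 50 and Dlk1, which is shared with hepatoblasts, in 49. Krt18, an epithelial keratin, was positive in 34, Nr2f2 in 36 and Gata6 in 32. Bnc1, a zinc-finger gene of mesothelium, and Aldh1a2, which makes retinoic acid, were each positive in 17, Krt19 in 14 and Lrrn4 in 10. At least 3 of 20 mesothelium genes, Wt1 included, were positive in 48 (88.9%). Wt1 had chosen these cells, and Dlk1, Krt8 and Krt18 of this list are also on the hepatoblast list. No share of other cells is set beside this value, so it does not set Wt1+ cells apart. No Wt1+ cell was in the Afp+ class, though 1 was positive for both Afp and Pdgfra. None of the Wt1+ cells had 3 or more of 8 endothelial genes positive.

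A group of 20 of the 54 also had a uroplakin, and these carried more of the list than the 34 without. Krt18 was positive in 20 of 20 against 14 of 34, Podxl in 18 against 12, Gata4 in 16 against 11 and Alcam in 18 against 21. Bnc1 was positive in 12 against 5, Krt19 in 10 against 4, Lrrn4 in 9 against 1 and Tbx18 in 9 against 2. Pdgfra went the other way, at 10 of 20 against 26 of 34, and so did the member Nr2f1, at 10 against 20. Myl7, a myosin light chain of heart atrium, was positive in 13 of the 20 and in 20 of all 54. Of the other heart muscle genes on the lists, Tnnt2 was positive in 9 of the 54, Nkx2-5 in 3, and Myh6 and Actc1 in 0. The 20 cells with a uroplakin were all from pools 3 to 5, which gave 7, 6 and 7. The 34 without included 11 cells of pools 1 and 2. Genes detected had medians of 7100 in the 20 and 5709.5 in the 34. The part of the pools and of the depth in this difference was not tested.

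Pdgfra+ cells were then split by Wt1, 35 with and the rest without. Other than Wt1 itself, which made the split, 4 of 8 members were at least 2-fold higher in Wt1+ cells, beside 14.7% of 13706 genes tested. Upk3b stood at 148.9 against 5.06 RPM, a ratio of 29.4, and Upk1b at 61.7 RPM against 6 reads (1415, 649 to 3858). Podxl was 3.38-fold and Lhx2 2.98-fold higher. Of the 4 pools with 5 cells on both sides, Upk1b and Lhx2 were higher in 2 each and Upk3b and Podxl in 3 each. The others were below 2-fold, with Gata4 at 1.84, Nr2f1 at 1.78, Alcam at 1.62 and Hand2 at 1.48. Of the members past 2-fold, only Lhx2 was a septum transversum gene. Pools 1 and 2 gave 5 and 2 of the 35 Wt1+ cells but 24 and 18 of the Wt1- cells. In pools 3 to 5 alone, Upk3b (23.3), Upk1b (1122), Podxl (3.37) and Lhx2 (2.69) again passed, beside 13.8% of the genes tested.

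The rest of the mesothelium list went with Wt1. Without Wt1, 13 of its 16 tested genes were at least 2-fold higher in Wt1+ cells, and the median log2 ratio was 1.79 against -0.09 over all genes. The members Upk3b, Upk1b and Podxl, given above, are among the 13. Lrrn4 stood at 43.1 RPM against 1 read in all Wt1- cells. Gpm6a was 13.7-fold, Bnc1 11.5-fold, the T-box gene Tbx18 7.88-fold and Sema3d 4.96-fold higher, the last in 4 of 4 pools. Aldh1a2 (3.46), Krt19 (3.43), Krt8 (2.57) and Krt18 (2.10) were higher as well, and Dlk1 (1.27) and Rspo1 (1.43) were not past 2-fold. Mesenchyme genes did not follow, since 0 of 14 were higher and 4 were lower: Pdgfrb by 7.23-fold, Dcn by 5.43-fold, Lum by 3.17-fold and Twist1 by 2.12-fold. Of the septum transversum list, Hlx (5.99, in 3 of 4 pools) and Des (3.55, in 2 of 4) were higher beside Lhx2, and the T-box genes Tbx20 and Tbx5 were 2.94-fold and 2.34-fold lower. Lgr5 was 6.12-fold lower in Wt1+ cells. In pools 3 to 5 alone, 13 of the 16 mesothelium genes passed, with Tbx18 at 17.3 and Rspo1 at 2.18, while Pdgfrb was 3.45-fold and Dcn 2.38-fold lower.

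Outside the lists, the genes with the largest ratio that were positive in at least 50% of the Wt1+ cells and higher in every pool compared were Smtnl2 (11-fold), Crb2 (4.82), Jup (3.67), Frmd4b (3.13), Lrrc42 (3.12), Rnf111 (2.96), Myrf (2.85), Gpat4 (2.84), Gtf3a (2.71) and Wdr86 (2.66). Crb2 is a crumbs family protein of epithelial polarity and Jup is plakoglobin, of cell junctions. Crb2, Smtnl2, Myrf and Frmd4b were also among the 10 genes most like Wt1 over the 414 E10.5 cells, by Pearson's r of log2(RPM + 1) with r above 0 in every pool where the gene had reads. These were Upk3b (0.53, with no read in pool 1 and 1 read in pool 2), Crb2 (0.45), Smtnl2 (0.43), Myl7 (0.41), Myrf and Prkcb (both 0.37), Tmem108 (0.36), Erbb4 (0.33), Tnni1 (0.32) and Frmd4b (0.30). In the 239 cells of pools 3 to 5 alone, Upk3b (0.60), Bnc1 (0.58), Crb2 and Gata4 (both 0.50) and Krt7 (0.47) were at or near the head.

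Alcam+ cells were a broader set than Wt1+ cells. Of the 150 at E10.5, Dlk1 was positive in 88.7%, Vim in 76%, Col3a1 in 69.3%, Gata6 in 63.3% and Nr2f2 in 62.7%. Among the members, Nr2f1 was positive in 52, Podxl in 44 and Wt1 in 39. Lgr5 was positive in 35 of them, against 3 of the 54 Wt1+ cells.

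Pdgfra+ cells were split by Alcam as well, 79 with and 67 without. Of the 8 other members, 6 were at least 2-fold higher in Alcam+ cells, beside 3290 of the 13706 genes tested (24%). Upk3b stood at 71.3 against 1.92 RPM (37.1-fold) and Upk1b at 27.4 RPM against 2 reads (1125, 311 to 9293), and each was higher in 2 of 5 pools. Lhx2 was 4.14-fold, Gata4 2.42-fold, Podxl 2.33-fold and Wt1 2.29-fold higher, in 3 or 4 of the 5 pools. Hand2 (1.07) and Nr2f1 (0.763) were not past 2-fold. Of the other mesothelium genes Bnc1 was 19.3-fold and Krt19 12.9-fold higher. Of the 16 tested genes of that list without Alcam 11 passed, the members Upk3b, Upk1b, Podxl and Wt1 among them. Of the septum transversum list, Gata6 was 2.62-fold higher in Alcam+ cells in 5 of 5 pools, whereas Isl1, a LIM-homeodomain gene of foregut and heart mesoderm, was 2.43-fold lower in 5 of 5 and Barx1, a gene of stomach mesenchyme, 2.96-fold lower. Lgr5 was 2.48-fold higher.

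The pools differed between these sets. Pools 1 and 2 gave 11 of the 79 Alcam+ and 38 of the 67 Alcam- Pdgfra+ cells, and the median numbers of genes detected were 6618 and 4927. In pools 3 to 5 alone these were 6944 and 6370. Within these 3 pools 4 of the 8 other members were past 2-fold, beside 22.4% of the genes tested: Upk1b (579, against 2 reads), Upk3b (19.1), Wt1 (4.75) and Lhx2 (3.35). Gata4 (1.25) and Podxl (1.05) were not, and neither was Lgr5 (1.41). Bnc1 was 9.26-fold and Krt19 6.66-fold higher there, and 9 of the 16 mesothelium genes passed, with the members Upk1b, Upk3b and Wt1 among them. The list also had 3 genes lower in Alcam+ cells of these pools, Gpm6a by 3.14-fold, Aldh1a2 by 2.80-fold and Krt18 by 2.10-fold. Isl1 and Barx1 were 3.74-fold and 5.76-fold lower. By the rule used for Wt1, the leading genes included Tnc (11.5-fold), an extracellular matrix protein, Ccbe1 (8.07), Cdc42ep3 (7.21), Pgm1 (5.88), Ppp2r2b (5.77), Nav3 (5.07), Chuk (5.02), Pls3 (4.89) and D10Jhu81e (4.57). In pools 3 to 5 alone, Tnc (5.17), Ccbe1 (6.48), Ppp2r2b (11.2) and Nav3 (5.10) were again among the 10, with the Wnt inhibitor gene Dkk2 (21.1) and the T-box gene Tbx2 (7.98). The genes most like Alcam over the 414 cells were Ppp2r2b (0.52), Tnc (0.51), Pls3 (0.49), Gata6 (0.48), Ahnak and Wnt2 (both 0.47), Samd4 (0.46), Sfrp1 and Ugdh (both 0.43) and Ndnf (0.42). None of these was a member.

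Alcam was also found with Afp. Of the 59 Afp+ E10.5 cells, 23 were Alcam+ (39%, 26.5 to 52.6), at 16 to 685 reads, so that the highest of them lay below the median of 837 in Alcam+ Pdgfra+ cells. The 23 carried hepatoblast genes: Ttr was positive in all 23, Alb in 21, Prox1 in 20, and Hnf4a and Foxa3 in 18 each. In the 36 Alcam- Afp+ cells Ttr was positive in 35, Alb in 28, Foxa3 in 16, Hnf4a in 15 and Prox1 in 14. Lgr5 was positive in 11 of 23 and 12 of 36. The sets came from different pools, as 25 of the 36 but 8 of the 23 were from pool 2. Within pool 2, Prox1 was positive in 6 of 8 against 5 of 25, Hnf4a in 5 against 7 and Foxa3 in 4 against 8. No cell was positive for Alcam, Pdgfra and Afp together.

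Between the E10.5 sorts, the median log2 ratio of Lgr5-GFP+ to bulk cells was -0.47 over the 9 members, against -0.001 over all genes. Of the 9, 0 were at least 2-fold higher in Lgr5-GFP+ than in bulk cells, beside 14.2% of 14284 genes tested, and 2 were lower, beside 13.2%. Wt1 stood at 24.3 against 58.5 RPM, 2.41-fold lower, and Lhx2 at 2.80 against 15.7 RPM, 5.59-fold lower, each lower in 5 of 5 pools. The Wt1+ share of bulk cells ranged over the pools from 11.9% to 27%, and that of the GFP sort from 0 to 17.1%. The difference was also there within the Pdgfra+ class, at 24 of 79 bulk (30.4%) and 11 of 67 Lgr5-GFP+ cells (16.4%), although these intervals of 20.5 to 41.8 and 8.49 to 27.5 overlapped. Alcam stood at 292 against 184.4 RPM (1.58). Its share was higher in Lgr5-GFP+ cells in 5 of 5 pools, at 17.8%, 23.4%, 65%, 73.2% and 47.4% against 14.3%, 14.6%, 39%, 28.6% and 45.9%, but its summed level was 2.79-fold higher in pools 3 to 5 and 0.501 times the bulk level in pools 1 and 2. Gata4 (0.533), Nr2f1 (0.665), Hand2 (0.723), Podxl (0.947), Upk3b (1.01) and Upk1b (1.11) did not pass. Of the wider lists 6 of 15 septum transversum genes, the member Lhx2 among them, were lower in Lgr5-GFP+ cells and 10 of 13 hepatoblast genes higher. Lower as well were 9 of 9 erythroid and 5 of 5 leukocyte genes. The sorts differed in their mix of classes. Of Lgr5-GFP+ cells 25.1% were Afp+ and 0.948% erythroid, and of bulk cells 2.96% and 19.7%. The summed levels thus mix cell numbers with levels per cell.

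**Figure D5:**
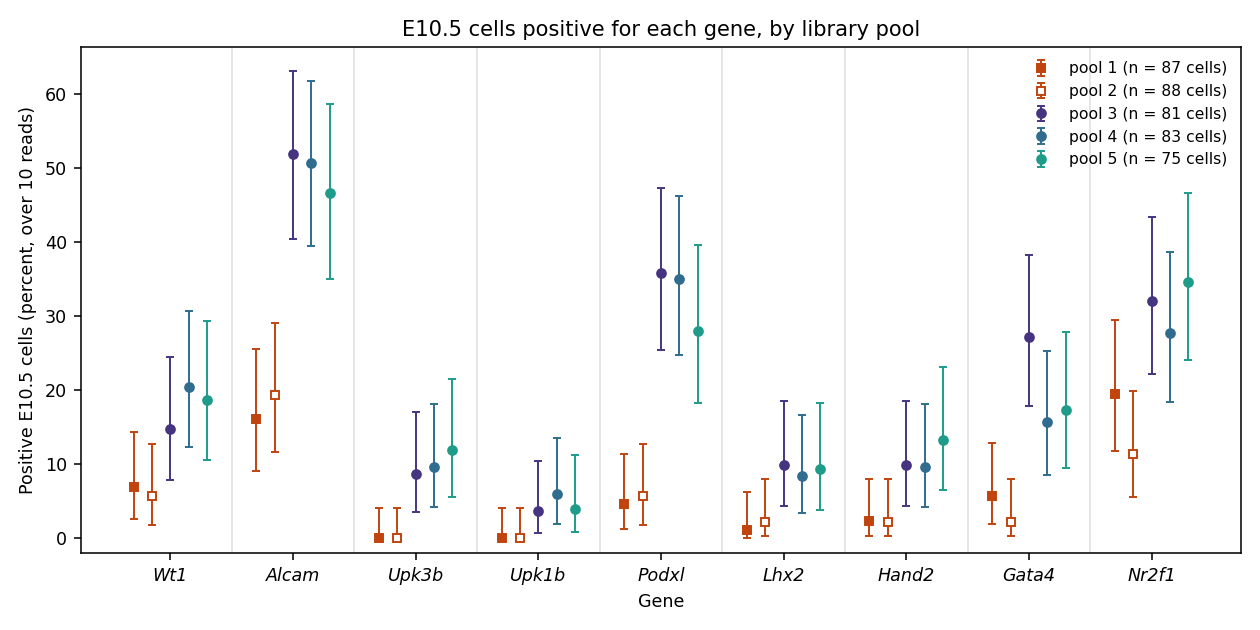
Percent of E10.5 cells with more than 10 reads of each gene (y axis, percent) in the 5 library pools of 87, 88, 81, 83 and 75 cells, with exact 95% intervals as bars. Upk3b and Upk1b have no positive cell in pools 1 and 2, and Alcam, Podxl and Gata4 are lower there than in pools 3 to 5.

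The shares of the members differed between the pools. At E10.5 Upk3b was positive in 0 cells of pools 1 and 2, which allows up to 1.71%, and in 24 of the 239 cells of pools 3 to 5. Upk1b was positive in 0 and in 11 (4.60%), Alcam in 17.7% and 49.8%, and Wt1 in 11 (6.29%) and 43 (18%). For Podxl the shares were 5.14% and 33.1%, for Gata4 4.0% and 20.1%, for Lhx2 1.71% and 9.21%, and for Hand2 2.29% and 10.9%. Nr2f1 was positive in 15.4% and 31.4%, yet its summed level was higher in pools 1 and 2, at 89.2 against 55.9 RPM, and so was that of Hand2, at 7.79 against 4.63 RPM. Within Pdgfra+ cells the same order held for Alcam, with 20.7% and 25% in pools 1 and 2 and 61.5% to 74.4% in the rest, and for Wt1, with 5 of 29 and 2 of 20 cells against 23.1% to 31.3%. Which animals or sort days the pools stand for was not analysed here, so their part in the shares was not tested.

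Most members were lower at E13.5 in bulk cells. Of the 9, 7 were at least 2-fold higher at E10.5, beside 35.9% of 13694 genes tested. Wt1 stood at 58.5 RPM at E10.5 and 1.21 RPM at E13.5 (48.4-fold), Alcam at 184.4 and 15 (12.3-fold), Hand2 at 6.91 and 0.322 (21.5-fold) and Nr2f1 at 84 and 4.39 (19.1-fold). Upk3b, Upk1b and Lhx2 had 8, 2 and 4 reads in all E13.5 bulk cells, and the ratios were 718.3 (364 to 1664), 1024 (283 to 8457) and 694 (271 to 2548). Gata4 (1.97) and Podxl (0.636) did not pass. At E13.5 the reads of several genes lay in single bulk cells, which held 84.6% for Wt1, 86.9% for Alcam, 86.9% for Gata4 and 95.9% for Nr2f1. Gata4 was 12.9-fold higher at E10.5 without pool 2, the pool of its highest E13.5 cell, and 0.338 times the E13.5 level without the erythroid class.

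These summed levels mix cell numbers with levels per cell, which cannot be told apart in a sum. The E13.5 bulk sort held 20 cells without the erythroid class. Then 7 of 9 members were still past 2-fold, with Wt1 at 9.27 and Alcam at 2.12. The share of all genes past 2-fold was not computed for so few cells, so this count is not read as a result about the members. Among the 20, Alcam, Podxl and Gata4 were positive in 2 each, Wt1, Nr2f1 and Hand2 in 1 each and the uroplakins and Lhx2 in 0. With the erythroid class kept, 15 of 17 mesothelium and 14 of 15 septum transversum genes of the wider lists were at least 2-fold higher at E10.5. Of these, 4 and 3 were members. Higher at E10.5 too were 14 of 14 mesenchyme, 12 of 13 hepatoblast, 8 of 8 stellate and 6 of 8 endothelial genes. A higher level at E10.5 was thus not particular to the mesothelium and septum transversum lists. On the erythroid list 10 of 10 genes and on the leukocyte list 6 of 6 were lower at E10.5. Podxl alone among the members was found in many E13.5 bulk cells, and it was positive in 51 of the erythroid cells of that stage (35.2%).

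The few Wt1+ cells at E13.5 carried matrix genes. Of 9, 8 were Lgr5-GFP+, 3 were Pdgfra+, 5 in no class and 1 erythroid. They held 85 to 3567 Wt1 reads with a median of 479. The matrix genes Dcn, Col1a1, Col1a2 and Col3a1 and Dlk1 were positive in all 9, and Lum and Postn in 8 each. Alcam and Gata4 were positive in 4 each and Upk3b in 1. Markers of other cells were found too, as Pf4, a platelet gene, was positive in 4 at a summed level of 4107 RPM and the hepatocyte gene Apoa2 in 5 at 17.8 RPM, and 1 cell had at least 3 of 7 megakaryocyte genes. Their part in these values was not tested. The 13 Alcam+ cells of E13.5 had Dlk1 in 12, Lum and Dcn in 9 each and Gata4 in 7. No test between the stages was possible on so few cells of 1 sample per group.

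Gata4 had the most positive E13.5 Lgr5-GFP+ cells of the members, and its cells differed in the other genes they carried. Of 21 Gata4+ cells, 10 had at least 3 of 8 endothelial genes, although CD31+ cells had been gated out. Pecam1, which encodes CD31, Cdh5, Kdr, Tek and Lyve1 were positive in 10 each, and Cldn5 and Egfl7 in 9. At least 3 of 14 mesenchyme genes were positive in 7 of the 21, with Dcn in 7. No cell had both, 4 had neither, and 2 of the 21 were in the erythroid class. Alcam was positive in 7. Of the 21, 12 came from pool 3. At E10.5, by contrast, Gata4 was found with Wt1 in 27 of 55 Gata4+ cells.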

How the data were processed

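Counts were taken from 1 deposited table of 54195 Ensembl genes by 653 cells. Per the study's methods and the submitters' processing notes, the authors mapped 1 read end per fragment to the mouse genome (GRCm38.p6) with STAR 2.6.0c, counted unique reads with featureCounts of Subread 1.6.2, kept cells by mitochondrial, spike-in and total reads and by limits on detected genes that differed between sorts, and worked in Scanpy 1.3.3. Unique counting leaves out reads shared by near-identical genes. A normalised table was also deposited and was not used. No column of cells was left out.

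Counts were read with Python 3.11.15, pandas 2.3.3, numpy 2.4.6 and SciPy 1.17.1, and drawn with matplotlib 3.10.9. RPM is reads per 1000000 reads on all genes; levels per length divide RPM by kilobases of exon. The groups held 203 E10.5 bulk, 211 E10.5 Lgr5-GFP+, 159 E13.5 bulk and 80 E13.5 Lgr5-GFP+ cells, and the E10.5 classes 146 Pdgfra+, 59 Afp+, 4 with both, 42 erythroid and 163 other cells. Groups, being 1 sample each, were compared by the ratio of summed RPM over genes with at least 1 RPM in both sides together, without a test, and a gene was counted from 2-fold. A cell was positive with over 10 reads, the limit that the study set for Lgr5. Erythroid cells had at least 3 of 10 erythroid genes positive. Pools with under 5 cells on a side gave no pool value. Doublets were not called, since cells were sorted singly. Ratios of summed RPM were tested on simulated counts, and the Clopper-Pearson intervals on independent simulated draws. The Poisson intervals and the intervals of ratios were not tested in this way. The genes named were the 9 members, Pdgfra, Afp and Lgr5, the marker lists, and the 10 genes most like Wt1, Alcam or Upk3b or with the largest ratio in Wt1+ or Alcam+ cells. Some genes that these rules named are not reported here. The members and lists were chosen with earlier results of these data known. Alternatives that leave out the erythroid class or the highest cell, compare pairs, classes, Lgr5+ cells or the Wt1 and Alcam splits within pools, or split sorts in pools 3 to 5 were chosen after seeing the data.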

Additional observations from a re-analysis of the deposited data

How the results depend on the processing

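No paired analysis was possible because replicate numbers only name cells, and the pools, within which values are given above, are not labelled as animals or sorts. Among other settings of the summary results, 94 kept the value within its counting interval, or a count within 1.5 times, and 22 did not; of 180 shares of single genes, 28 did not keep theirs, 25 of these at a limit of 1 read. Of 237 ratios of single members between groups or classes under other pools, sorts or classes, 80 stayed within the counting interval of the ratio and the rest did not. Of those that had passed 2-fold, 2 changed direction. Podxl in Pdgfra+ over Afp+ cells (2.28) was 0.770 in bulk cells, of which only 6 were Afp+, and 0.668 in pools 1 and 2. The Wt1+ share of Pdgfra+ cells (24%) was 36.3% at 1 read, 16.4% in Lgr5-GFP+ cells, 14.3% in pools 1 and 2, 36% in bulk cells of pools 3 to 5, and 21.5% to 26.2% with each pool left out. The Alcam+ share of Pdgfra+ cells (54.1%) was 74.7% at 1 read, 45.6% in bulk and 64.2% in Lgr5-GFP+ cells, 22.4% in pools 1 and 2, 70.1% in pools 3 to 5, and 46.7% to 62.4% with each pool left out. That of Afp+ cells (39%) was 81.4% at 1 read, 25.4% over 50 reads, 16.7% in 6 bulk cells, 25.7% in pools 1 and 2, 58.3% in pools 3 to 5, and 30.6% to 57.7% with each pool left out, the highest without pool 2. That of Wt1+ cells (72.2%) was 45.5% in pools 1 and 2 and 66.7% to 79.2% with each pool left out. In pools 1 and 2 alone, 4 members in place of 9 had a higher share in Pdgfra+ than in Afp+ cells, and 5 in place of 9 were 2-fold higher there. With each pool left out, 8 to 9 were 2-fold higher in Pdgfra+ cells, 7 to 8 at E10.5 (8 without pool 2, with Gata4) and 0 to 1 in Lgr5-GFP+ cells; the 1 was Alcam without pool 2 (2.29-fold) or in pools 3 to 5, and Upk1b without pool 5 (2.68-fold). Thinning each cell to 100000 reads gave 23.3% Wt1+ and 54.1% Alcam+ of Pdgfra+ cells. The cause of these differences was not tested. With 1 sample a group, the spread between animals is not known. A gene with few reads in a cell could be missed, which limits Hand2 most.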

Other observations

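Some of the members were found with the Lgr5 transcript. Of 414 E10.5 cells, 67 had over 10 reads of Lgr5, and 20 of these were Pdgfra+, 23 Afp+ and 24 in no class. Alcam was positive in 35 of the 67 (52.2%, 39.7 to 64.6) and in 33.1% of the other 347 (28.2 to 38.4). Of the 67, 54 came from pools 3 to 5, where Alcam was positive in 61.1% of them (46.9 to 74.1) and in 46.5% of the other cells. Wt1 was positive in 3 (4.48%, 0.933 to 12.5) and 51 (14.7%, 11.1 to 18.9), and Podxl in 6 (8.96%, 3.36 to 18.5) and 82 (23.6%, 19.3 to 28.5). Upk1b was positive in 0 and 11, and Nr2f1 in 14 (20.9%) and 88 (25.4%). In pools 3 to 5 the shares were 5.56% and 21.6% for Wt1, 9.26% and 40% for Podxl and 24.1% and 33.5% for Nr2f1. None of the 67 Lgr5+ cells was in the erythroid class, so its 42 cells all lay among the other 347. They held 25 of the 82 Podxl+ cells and 0 of the Alcam+ cells. The shares without them were not computed. Within the Lgr5-GFP+ sort, Alcam was positive in 32 of 62 Lgr5+ cells (51.6%) and 61 others (40.9%), with intervals of 38.6 to 64.5 and 33 to 49.3. Lgr5 passed the limit in 62 cells of that sort (29.4%) and in 5 E10.5 bulk cells (2.46%).

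The 10 genes most like Upk3b over the 414 E10.5 cells, with r above 0 in each pool where it had reads, were Wt1 (0.53), Slc1a3 (0.40), Myrf and Stk26 (both 0.39), Akap12 (0.37), Lama5, a laminin chain of basement membranes, and Myo1d (both 0.36), Tnni1 (0.35), Plp2 (0.33) and Mmp23 (0.32). Upk3b had 0 reads in pool 1 and 1 read in pool 2, so for pool 2 this rule rested on 1 cell. Over the 239 cells of pools 3 to 5 the list held Wt1 (0.60), Krt7 (0.58), Bnc1 (0.57), Cryab (0.55), Crb2 (0.53), Podxl (0.52) and Krt19 (0.51). Apart from Wt1, these genes had a lowest pool r of -0.04 to -0.01, outside pools 3 to 5. They had thus been kept out of the first list by that rule. These correlations are across cells of shared libraries and carry no test.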
